A study of Mus musculus with 6 samples.

Results

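The proteasome genes of sorted mouse regulatory T cells (Tregs) were examined across the 6 arrays of a T cell transfer experiment. They were taken as every gene whose single symbol on the array platform begins with Psma, Psmb, Psmc, Psmd, Psme, Psmf or Psmg and a digit, without the interferon-inducible subunit genes Psmb8, Psmb9 and Psmb10. This gave 47 of the 19937 genes with 1 symbol, and 46 of the 15037 genes that passed a filter on low values (mean log2 value of at least 5.205). The 47th, Psma8, which encodes an α subunit of the testis, had a mean below the filter, with values of 5.09, 5.05 and 5.17 in MHC II-deficient and 5.12, 5.08 and 5.08 in MHC II-competent arrays. Psmc3ip and Psme3ip1 were included by their names, but encode proteins that interact with a subunit or an activator and are not part of the particle.

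The sorted cells descended from T cells of wild-type C57BL/6 donors, given to recipients that lacked CD3ε and therefore had no T cells of their own. The MHC II-deficient recipients lacked MHC class II as well as CD3ε. The MHC II-competent recipients lacked CD3ε alone. After 5 days, CD4+ TCRβ+ CD25+ cells were enriched with magnetic beads and sorted from both, with lymph nodes and spleen as the labelled tissue and 6 to 8 weeks as the labelled age. There were 3 arrays per group, below called deficient 1 to 3 and competent 1 to 3, and the labels do not say whether an array holds 1 recipient or a pool. The p-values therefore measure the spread between these preparations. The sort used CD25 and not Foxp3, and recipients of both kinds keep their own cells other than T cells.

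The proteasome degrades proteins that carry ubiquitin chains. Its core, the 20S particle, is a barrel of α and β rings with proteolytic sites on the β subunits, and the 19S regulatory particle binds, deubiquitinates and unfolds substrates. The base of the 19S particle holds a ring of ATPases and the lid holds the deubiquitinase. Dedicated chaperones assemble both particles, and other caps, the PA28 and PA200 activators, can bind the ends of the core. Inducible catalytic subunits, encoded by Psmb8, Psmb9 and Psmb10, can take the place of the constitutive ones in newly made cores. Lymphocytes hold them without added interferon, and interferon-γ induces them in many other cells.

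Markers of Tregs and T cells were well above the filter in both groups. Foxp3, the defining transcription factor of Tregs, averaged 9.77 in MHC II-deficient and 9.82 in MHC II-competent arrays, and Cd3e averaged 11.12 and 11.19. All 5 Treg genes tested lay lower in MHC II-deficient arrays and none passed the threshold. Il2ra, which encodes CD25 (-0.27), Ctla4 (-0.33) and Ikzf2 (-0.29) had groups that did not overlap and an unadjusted p under 0.05 in limma's fit. Foxp3 (-0.06) and Tnfrsf18 (-0.0038) had overlapping groups. All 5 are among the 3759 tested genes with the highest mean values (at least 8.33), of which 68.9% lay lower. In that direction, 27.7% of those 3759 genes had groups that did not overlap and 22.1% had an unadjusted p under 0.05. Of 17 myeloid markers, 16 lay higher in the MHC II-deficient arrays. Of these, 1 (Adgre1) passed the threshold and 14 had an unadjusted p under 0.05, against 1.34% and 7.85% of all tested genes in that direction. Itgam lay the other way at -0.43, with groups that did not overlap and an unadjusted p of 0.00904 in limma's fit. The mean log2 level of the 17 markers was 6.72 to 7.46 in MHC II-deficient and 5.88 to 6.75 in MHC II-competent arrays. B cell markers were at 6.28 to 6.43 against 5.93 to 6.15, with 1 of 5 (Cd22) past the threshold and Ms4a1 below the filter. Cd22 alone lay at 1.32, while Cd79a lay at 0.46, Blk at 0.19, Pax5 at 0.02 and Cd79b at -0.39 with groups that did not overlap. The 5 tested CD8 T and NK cell markers, none of them past the threshold, were at 7.28 to 7.39 against 6.84 to 7.12, with Ncr1 and Klrb1c below the filter. Erythroid and platelet markers were at 6.45 to 6.68 against 6.07 to 6.48, with Pf4 below the filter. The part of these other cells in the results below was not tested beyond a fit with the myeloid level as a covariate. In a bulk sample, fewer cells of a type and less RNA per cell cannot be told apart.

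Most proteasome genes lay slightly lower in Tregs from MHC II-deficient recipients, but no single gene passed the test. Among the 3759 tested genes with the highest mean values, 68.9% lay lower as well. Of the 46 tested members 40 had a log2 difference (MHC II-deficient minus MHC II-competent) below 0 and 6 above it. The median difference was -0.19, a level 1.14-fold higher in MHC II-competent arrays, and the differences ran from -0.49 to 0.26. With limma's test and p-values adjusted over all 15037 genes, 0 members were lower and 0 higher at an adjusted p under 0.05, where 2.03% of all tested genes were lower, 1.34% higher and 3.37% either. All MHC II-deficient arrays lay below all MHC II-competent arrays for 16 members and above them for 3, against 12.9% and 11.4% of all tested genes, and the groups overlapped for 27, where 24.3% of all tested genes had groups that did not overlap. At an unadjusted p under 0.05, 11 members were lower and 1 was higher, against 11% and 7.85% of all tested genes. Among the 3 smallest adjusted p-values, Psmb7 had 0.0527, Psmc3ip 0.0552 and Psmd8 0.0576. No 95% interval reached a difference of -1, a 2-fold decrease, and the lowest bound was -0.75.

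The background of these numbers depends on the level of a gene. Over all tested genes the median difference was 0.02 and 46% lay below 0, but 39 of the 46 members are among the 3759 genes with the highest mean values (at least 8.33). The median of those 3759 genes was -0.10 and 68.9% lay below 0. The 39 members among them had a median of -0.20, with 35 below 0. Likewise, all 3 MHC II-deficient arrays lay below all 3 MHC II-competent arrays for 15 of these 39 members, against 27.7% of those genes. At an unadjusted p under 0.05, 10 of the 39 were lower, against 22.1%, and at an adjusted p under 0.05, 0 of the 39, against 3.46%. Quantile normalization, which gives the arrays one distribution, moved the median of the 3759 genes to -0.03 and that of the 39 members to -0.11.

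**Figure D1:**
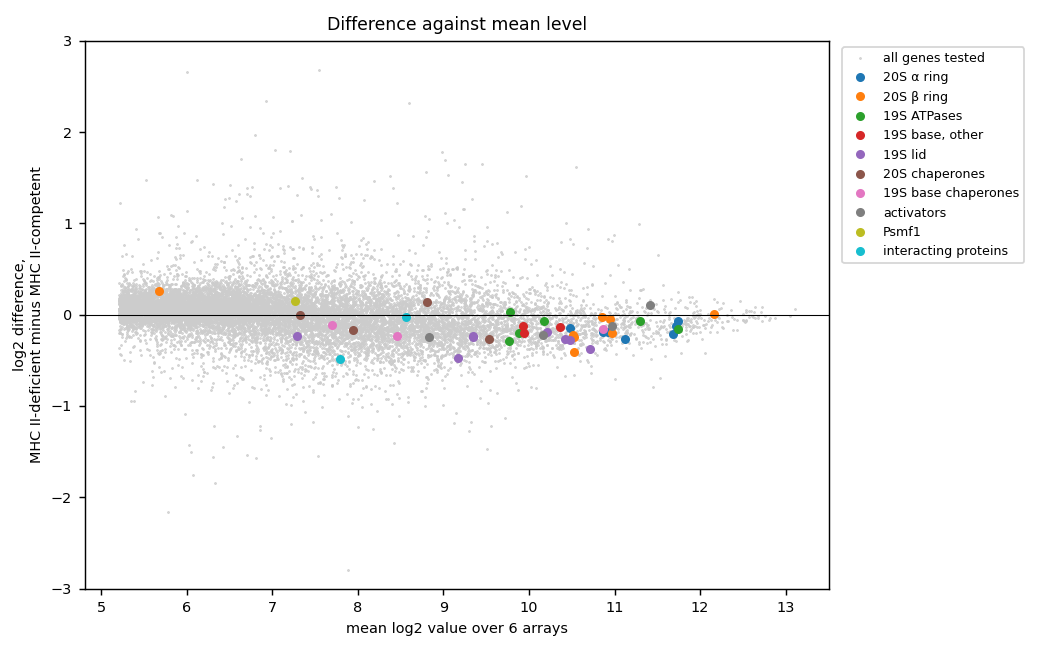
Log2 difference (MHC II-deficient minus MHC II-competent, vertical axis) against the mean log2 value over 6 arrays (horizontal axis) for all 15037 tested genes in grey and the 46 proteasome genes in colours by sub-complex. Most members sit at high mean values, where the grey cloud also lies slightly below 0, with a median of -0.10 for the 3759 genes of the highest means.

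Array by array, the shift was uneven. The 31 tested subunits of the constitutive 26S particle (the 20S core with its 19S caps, without Psmb11) had, as a mean over genes, deviations from their own 6-array means of -0.13, -0.10 and -0.05 in deficient 1 to 3, against 0.16, 0.14 and -0.02 in competent 1 to 3. The groups did not overlap, but competent 3 lay closer to the MHC II-deficient arrays than to competent 1 or 2. Of the 31 subunits, 2 were above their own mean in deficient 1, 5 in deficient 2 and 5 in deficient 3, against 29 in competent 1, 29 in competent 2 and 15 in competent 3. The highest of the 6 values was in competent 1 for 17 subunits and in competent 2 for 11. The same mean over all tested genes stayed between -0.01 and 0.02 in every array.

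**Figure D2:**
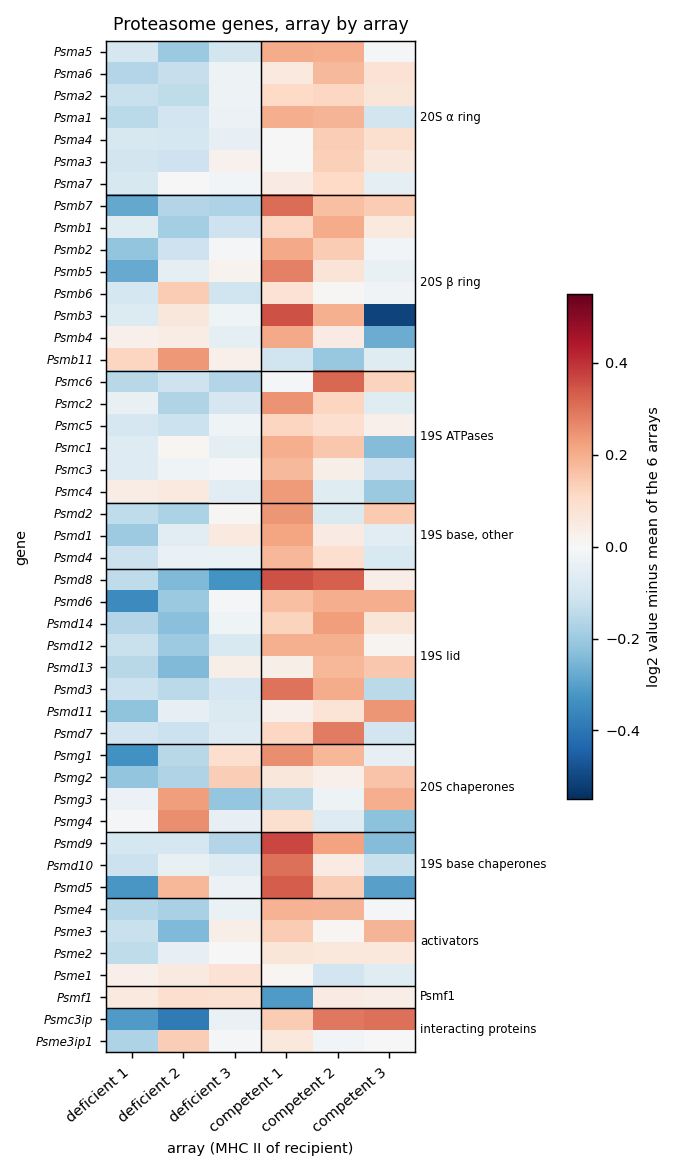
Log2 value of each of the 46 tested proteasome genes (rows, grouped by sub-complex) in each array (columns, MHC II-deficient on the left), shown as the deviation from the gene's mean over the 6 arrays. Blue (below the mean) fills most of the 3 left columns and red the columns of competent 1 and 2, while competent 3 is mixed.

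Genes of the cell cycle moved in the same arrays. The mean level of 11 cell cycle genes was 9.17, 9.20 and 9.30 in deficient 1 to 3, against 9.72, 9.68 and 9.46 in competent 1 to 3. All 11 lay lower in the MHC II-deficient arrays, with a median difference of -0.49, where 46% of all tested genes lay below 0. Of the 11, 4 (Mki67, Top2a, Ccna2 and Bub1) were lower at an adjusted p under 0.05, against 2.03% of all tested genes. Among the 3759 genes with the highest means (at least 8.33), 68.9% lay below 0 and 3.46% were lower at that adjusted p. The means of the 11 ran from 8.18 to 10.73, so not all of them belong to those genes. As for the 26S subunits, competent 3 had the lowest value of its group. Whether the share of cycling cells has a part in the proteasome values was not tested.

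The α subunits form the outer rings of the core and its gate. All 7 tested lay lower in the MHC II-deficient arrays, with a median difference of -0.19. Of them, 4 (Psma2, Psma4, Psma5 and Psma6) had groups that did not overlap, in that direction. So did 12.9% of all tested genes and 27.7% of the 3759 genes with the highest means, which hold all 7 α genes. Of those 3759 genes, 68.9% lay below 0. The row used for Psma5, which encodes α5, may bind transcripts of a processed copy. It stood at 11.03, 10.92 and 11.02 in MHC II-deficient arrays, against 11.33, 11.33 and 11.12 in MHC II-competent arrays. Its groups did not overlap, and the difference of -0.27 (SE 0.10) had an adjusted p of 0.191. A further row of the gene lay at -0.22 with overlapping groups. Psma7, which encodes α4, stood at 11.66, 11.74 and 11.73 in MHC II-deficient arrays, against 11.79, 11.86 and 11.69 in MHC II-competent arrays. The MHC II-deficient values lay within the range of the other group but for deficient 1, and the difference of -0.07 (95% interval -0.28 to 0.14) had an adjusted p of 0.739 and a value of 0.0035 under quantile normalization. Without competent 2 it was -0.0335, without deficient 1 -0.0445 and without competent 3 -0.11. The other 5 differences lay between -0.21 and -0.13.

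The β subunits form the inner rings, where β1, β2 and β5 carry the proteolytic sites. Their 8 tested genes spanned the widest range, from -0.41 to 0.26, but the upper end is Psmb11 alone, a gene close to the filter value. The next highest was Psmb4, at 0.01. Psmb7, which encodes β2 with the trypsin-like site, had the smallest adjusted p of all members. It stood at 10.24, 10.36 and 10.35 in MHC II-deficient arrays, against 10.83, 10.69 and 10.66 in MHC II-competent arrays. The groups lay apart by more than either spread, with means of 10.32 ± 0.07 and 10.73 ± 0.09 (SD, n = 3 each), and the level was 1.33-fold higher in MHC II-competent arrays. The difference of -0.41 (SE 0.10, 95% interval -0.63 to -0.19) missed the threshold in limma's fit (adjusted p = 0.0527), and passed it with median centring, with a filter at the median, with the trended robust prior and with array weights (adjusted p = 0.0429, 0.045, 0.0211 and 0.0298). Over all alternatives its adjusted p ran from 0.0211 to 0.301.

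The other catalytic genes differed less. Psmb5, which encodes β5 with the chymotrypsin-like site, stood at 10.70, 10.92 and 10.99 in MHC II-deficient arrays, against 11.25, 11.04 and 10.93 in MHC II-competent arrays, and its groups overlapped (difference -0.20, SE 0.12, adjusted p = 0.404, and -0.12 without deficient 1 or without competent 1). Psmb6, which encodes β1 with the caspase-like site, stood at 10.85, 11.09 and 10.84 in MHC II-deficient arrays, against 11.02, 10.95 and 10.92 in MHC II-competent arrays. The difference of -0.04 (95% interval -0.28 to 0.19) turned its sign under quantile normalization (0.03). Of the structural subunits, Psmb1 lay at -0.25 with groups that did not overlap and Psmb2 at -0.22. Psmb3 (-0.02) and Psmb4 (0.01) were both lowest of all 6 arrays in competent 3, at 10.34 and 11.89. The median of the β genes was -0.12 with all arrays, -0.28 without competent 3, -0.0616 without deficient 1 and -0.066 without competent 1. These medians include Psmb11. With a filter at the median, which leaves Psmb11 out, the median of the other 7 β genes was -0.20. Psmb11, which encodes the β5t subunit of thymic epithelium, stood at 5.79, 5.91 and 5.70 in MHC II-deficient arrays, against 5.56, 5.46 and 5.60 in MHC II-competent arrays, close to the filter value. It is the 1 member higher at an unadjusted p under 0.05 (0.26, SE 0.10, adjusted p = 0.2), and the median of the tested genes with the lowest means (the first of 4 level classes of nearly equal size) was 0.06.

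The 6 ATPases of the 19S base, which unfold the substrate and open the gate of the core, had a median of -0.12, with 5 below 0. The median was -0.0588 without competent 1 and -0.20 without competent 3. All 6 are among the 3759 tested genes with the highest means, which had a median of -0.10 and 68.9% below 0. Psmc6, which encodes Rpt4, was the lowest of the ATPases. It stood at 9.62, 9.66 and 9.61 in MHC II-deficient arrays, against 9.76, 10.08 and 9.89 in MHC II-competent arrays. The 3 MHC II-deficient values were close together and all below the others, and the difference of -0.29 (SE 0.11) had an adjusted p of 0.185. Psmc4, which encodes Rpt3, stood at 9.82, 9.83 and 9.72 in MHC II-deficient arrays, against 10.01, 9.71 and 9.58 in MHC II-competent arrays. The MHC II-deficient values lay inside the other group's range, and the difference of 0.02 (95% interval -0.25 to 0.30) turned its sign with median centring (-0.03), array weights (-0.05) and the myeloid covariate (-0.12), and without competent 2 (-0.00) or competent 3 (-0.07).

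Of the other base subunits, Psmd1 and Psmd2 encode its large scaffold proteins and Psmd4 the ubiquitin receptor Rpn10. Psmd2 stood at 9.81, 9.77 and 9.95 in MHC II-deficient arrays, against 10.19, 9.87 and 10.09 in MHC II-competent arrays (difference -0.20, SE 0.11, adjusted p = 0.369), and the difference was -0.0268 with the myeloid covariate and -0.13 without competent 1. The row used may bind a processed copy, and a further row of Psmd2 lay at -0.18. Psmd4 stood at 9.81, 9.89 and 9.89 in MHC II-deficient arrays, against 10.11, 10.02 and 9.84 in MHC II-competent arrays (difference -0.13, SE 0.10, adjusted p = 0.549), and the difference was -0.0685 without competent 1 and -0.20 without competent 3. The groups overlapped for all 3 genes, where 24.3% of all tested genes had groups that did not overlap. The median of the 3 was -0.14, and -0.0685 without competent 1. All 3 are among the 3759 tested genes with the highest means, which had a median of -0.10 and 68.9% below 0.

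The lid had the lowest median of the structural sub-complexes, -0.26, although differences between sub-complexes were not tested. All 8 of its tested genes lay lower in MHC II-deficient arrays, between -0.48 and -0.20, 5 had groups that did not overlap and 5 had an unadjusted p under 0.05. In that direction, 12.9% and 11% of all tested genes did so, and 27.7% and 22.1% of the 3759 genes with the highest means, which hold 7 of the 8 lid genes. The promoters of 2 lid genes from the lower end, Psmd6 and Psmd8, of a 3rd lid gene, Psmd12, and of the lowest ATPase gene, Psmc6, are shown to let the letters upstream of these genes be compared. Each runs from 250 bases before to 50 bases after the RefSeq start site (build GRCm38.p6), 5′ to 3′ on the strand of the gene, and capitals mark the matches found to CCGGAAG, the core of Ets factor sites, or to TGACNNNGC, the core of the antioxidant response element, on either strand.
Psmd6: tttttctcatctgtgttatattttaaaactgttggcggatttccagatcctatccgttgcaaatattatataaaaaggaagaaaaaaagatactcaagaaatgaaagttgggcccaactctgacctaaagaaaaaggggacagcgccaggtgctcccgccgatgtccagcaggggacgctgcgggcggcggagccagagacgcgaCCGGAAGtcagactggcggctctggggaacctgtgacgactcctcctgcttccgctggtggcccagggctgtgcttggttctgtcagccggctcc
Psmd12: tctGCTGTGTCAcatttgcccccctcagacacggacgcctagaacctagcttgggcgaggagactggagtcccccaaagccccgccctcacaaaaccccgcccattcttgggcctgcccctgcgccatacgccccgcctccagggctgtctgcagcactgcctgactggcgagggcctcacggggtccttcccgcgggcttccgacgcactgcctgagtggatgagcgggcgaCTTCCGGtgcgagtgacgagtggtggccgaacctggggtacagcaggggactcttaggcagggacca
Psmd8: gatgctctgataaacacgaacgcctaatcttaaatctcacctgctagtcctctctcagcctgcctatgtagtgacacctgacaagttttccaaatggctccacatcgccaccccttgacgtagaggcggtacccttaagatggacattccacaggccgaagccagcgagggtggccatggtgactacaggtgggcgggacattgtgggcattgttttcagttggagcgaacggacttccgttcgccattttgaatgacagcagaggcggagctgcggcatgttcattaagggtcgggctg
Psmc6: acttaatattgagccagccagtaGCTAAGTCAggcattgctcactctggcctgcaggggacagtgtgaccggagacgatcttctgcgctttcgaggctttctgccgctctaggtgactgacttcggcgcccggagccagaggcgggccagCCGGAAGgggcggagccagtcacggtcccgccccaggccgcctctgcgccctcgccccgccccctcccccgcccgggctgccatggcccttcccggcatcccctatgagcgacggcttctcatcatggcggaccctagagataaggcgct
They lie at chr14:14120896-14121195 on the minus strand (Psmd6), chr11:107479278-107479577 on the plus strand (Psmd12), chr7:29180624-29180923 on the minus strand (Psmd8) and chr14:45329574-45329873 on the plus strand (Psmc6). CCGGAAG begins 45 bases before the start site in Psmd6 and 100 bases before it in Psmc6, and its reverse complement 17 bases before it in Psmd12. The reverse complement of TGACNNNGC begins 247 bases before the start site in Psmd12 and 227 bases before it in Psmc6, and Psmd8 holds neither motif in this window. The marked matches do not overlap one another. Psmd12 was the 1 of 6 lid promoters that held TGACNNNGC. The promoter of Psmd14, not shown, held neither motif, and its difference was below that of Psmd12 (-0.28 against -0.27). The shares of both motifs over the members are given below.

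Over the 39 members with a promoter in the RefSeq table, CCGGAAG was found in 16 (41%), against 16.9% of the 11851 tested genes with a promoter and 8.86% of all 32851 promoters. It stood in 4 of 6 lid promoters, 3 of 5 ATPase promoters, 1 of 7 α and 0 of 5 β promoters. TGACNNNGC, bound in its full forms by Nrf1 and Nrf2 with small Maf proteins, was found in 6 of 39 (15.4%), against 15.9% of tested genes and 12.4% of all promoters. The form TGACTCAGC, which contains that core, was in 0 of 39, against 0.532% of tested genes and 0.454% of all promoters. CCAAT, the NF-Y box, was in 15 of 39 (38.5%), against 41.5% of tested genes and 37.4% of all promoters. Both strands were searched, and a gene with several start sites counted as holding a motif if any of them did. These are matches of letters and were not set against binding data.

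Psmd8, which encodes Rpn12, had the largest difference of the particle's subunits. It stood at 9.03, 8.93 and 8.84 in MHC II-deficient arrays, against 9.52, 9.50 and 9.21 in MHC II-competent arrays. The groups did not overlap, with competent 3 nearest to the MHC II-deficient values, and the level was 1.39-fold higher in MHC II-competent arrays. The difference of -0.48 (SE 0.11, 95% interval -0.73 to -0.22) had an adjusted p of 0.0576, and fell below the threshold with the trended robust prior (0.0454), array weights (0.0275) and without competent 3 (0.022), within a range of 0.022 to 0.167 over all alternatives. With the myeloid covariate the difference was -0.72. Psmd6, which encodes Rpn7 and was added after its values were seen, stood at 10.36, 10.51 and 10.70 in MHC II-deficient arrays, against 10.88, 10.91 and 10.92 in MHC II-competent arrays. Here the MHC II-competent values were nearly equal and the MHC II-deficient values spread below them (difference -0.38, SE 0.11, adjusted p = 0.1), and the trended robust prior gave an adjusted p of 0.0448.

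The deubiquitinase gene Psmd14, which encodes Rpn11 and removes ubiquitin chains as a substrate enters, stood at 10.32, 10.25 and 10.46 in MHC II-deficient arrays, against 10.60, 10.71 and 10.55 in MHC II-competent arrays. The groups did not overlap, and the difference of -0.28 (SE 0.10) had an adjusted p of 0.173. Psmd7, which encodes its partner Rpn8, had the smallest difference of the lid. It stood at 10.11, 10.10 and 10.15 in MHC II-deficient arrays, against 10.33, 10.50 and 10.11 in MHC II-competent arrays (difference -0.20, SE 0.11, adjusted p = 0.398). The difference was -0.10 without competent 2, -0.30 without competent 3 and -0.38 with the myeloid covariate. Psmd3, Psmd11, Psmd12 and Psmd13 lay between -0.27 and -0.23.

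**Figure D3:**
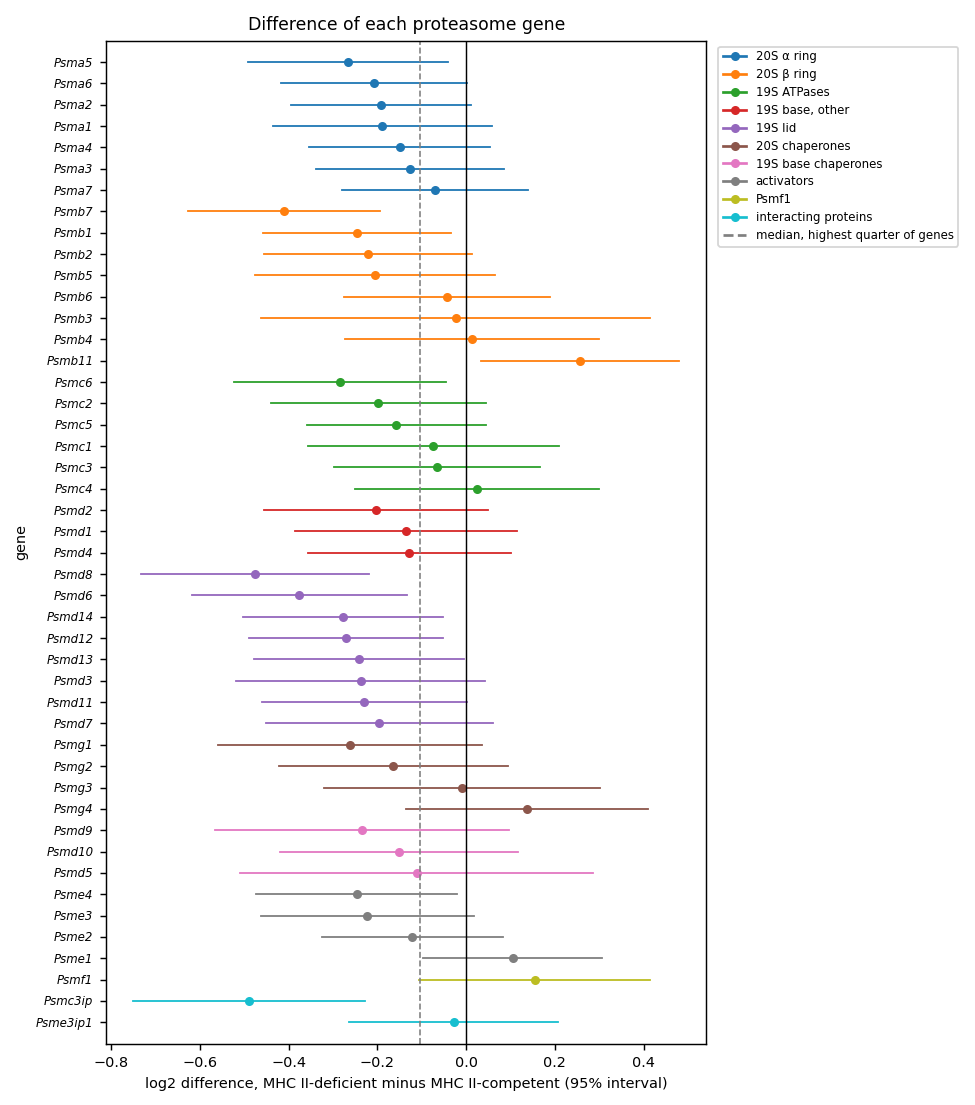
Log2 difference, MHC II-deficient minus MHC II-competent, with its 95% interval from limma for each of the 46 tested genes, coloured by sub-complex. The dashed line marks the median of the 3759 tested genes with the highest means (-0.10), and all 8 lid genes lie to its left.

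The assembly genes had overlapping groups for all 7 members, where 24.3% of all tested genes had groups that did not overlap. The median of the 4 core chaperones was -0.09, and ran from -0.13 without competent 1 to -0.0332 without competent 3. That of the 3 base chaperones was -0.15, with -0.0377 without competent 1, -0.23 without deficient 2 and -0.29 without competent 3. Psmg1, which encodes the α ring chaperone PAC1, stood at 9.20, 9.38 and 9.63 in MHC II-deficient arrays, against 9.79, 9.72 and 9.49 in MHC II-competent arrays (difference -0.26, SE 0.13, adjusted p = 0.327, and -0.16 without deficient 1). Psmg4, which encodes PAC4, stood at 8.81, 9.07 and 8.77 in MHC II-deficient arrays, against 8.90, 8.74 and 8.59 in MHC II-competent arrays (difference 0.14, SE 0.12, adjusted p = 0.593). With the myeloid covariate its sign turned (-0.01), and it was 0.0438 without deficient 2, 0.0606 without competent 3 and 0.22 without competent 1. Psmg2 lay at -0.16 and Psmg3 at -0.01.

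For the base chaperones, competent 3 was the lowest of the 6 arrays in Psmd9 and Psmd10. Psmd9, which encodes p27, stood at 8.36, 8.37 and 8.30 in MHC II-deficient arrays, against 8.83, 8.68 and 8.22 in MHC II-competent arrays (difference -0.23, SE 0.15, adjusted p = 0.433), with a difference of -0.41 without competent 3, -0.11 without competent 1 and -0.53 with the myeloid covariate. Psmd5, which encodes S5b, stood at 7.37, 7.88 and 7.66 in MHC II-deficient arrays, against 8.03, 7.83 and 7.40 in MHC II-competent arrays. Both groups were wide, and the difference of -0.11 (SE 0.18, adjusted p = 0.787) turned its sign without deficient 1 (0.02) or competent 1 (0.03). Psmd10, which encodes gankyrin, lay at -0.15.

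**Figure D4:**
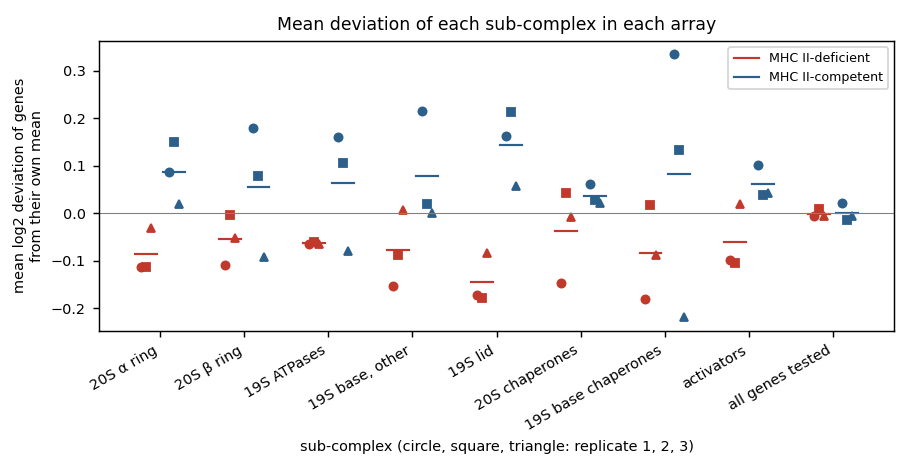
Mean deviation of the genes of each sub-complex from their own 6-array means (vertical axis, log2), in MHC II-deficient (red, left) and MHC II-competent arrays (blue, right). Lines are means over 3 arrays, and the groups do not overlap for the α ring, the lid and the activators, while competent 3 (triangle) falls to the MHC II-deficient side for the β ring, the ATPases and the base chaperones.

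Of the 4 activators 3 lay below 0 and 1, Psme1, above it, with a median of -0.17. All 4 are among the 3759 tested genes with the highest means, which had a median of -0.10 and 68.9% below 0. Psme1 and Psme2 encode the α and β subunits of PA28, which interferon-γ induces. Psme1 stood at 11.44, 11.46 and 11.49 in MHC II-deficient arrays, against 11.43, 11.31 and 11.35 in MHC II-competent arrays, so that all 3 MHC II-deficient values were above the others by a small margin (difference 0.10, SE 0.09, adjusted p = 0.582). Psme2 stood at 10.83, 10.92 and 10.97 in MHC II-deficient arrays, against 11.03, 11.03 and 11.03 in MHC II-competent arrays, and lay the other way (difference -0.12, SE 0.09, adjusted p = 0.52, and -0.0631 with the myeloid covariate). A row shared by Psme2 and its copy Psme2b lay at -0.07 with overlapping groups. Of 10 interferon response genes 5 (Stat2, Irf1, Irf7, Ifit1 and Oasl2) were higher at an adjusted p under 0.05, against 1.34% of all tested genes. The median difference was 0.58, with a range of -0.07 to 2.32 over the 10. The genes of class I antigen presentation among the 10 did not pass, with Tap1 at 0.37, Nlrc5 at 0.24, Tap2 at 0.11 and B2m at -0.07.

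The other activators lay lower. Psme3, which encodes the nuclear PA28γ, stood at 10.04, 9.92 and 10.19 in MHC II-deficient arrays, against 10.30, 10.17 and 10.34 in MHC II-competent arrays (difference -0.22, SE 0.11, adjusted p = 0.3), and the difference was -0.0426 with the myeloid covariate. Psme4, which encodes PA200, stood at 8.68, 8.66 and 8.80 in MHC II-deficient arrays, against 9.03, 9.02 and 8.83 in MHC II-competent arrays. Its groups did not overlap (difference -0.25, SE 0.10, adjusted p = 0.223). Psmf1, which encodes PI31, an inhibitor of the core in vitro, stood at 7.32, 7.36 and 7.35 in MHC II-deficient arrays, against 6.95, 7.31 and 7.30 in MHC II-competent arrays. Its difference of 0.15 (SE 0.12, adjusted p = 0.523) rests mostly on competent 1 and was 0.04 without that array.

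The inducible subunits lay on the other side of 0 from most of the constitutive ones, but for Psmb8 and Psmb9 this rested mostly on competent 3. Psmb10, which encodes the inducible β2i, stood at 9.76, 9.73 and 9.82 in MHC II-deficient arrays, against 9.50, 9.51 and 9.48 in MHC II-competent arrays (difference 0.27, SE 0.09, adjusted p = 0.14). Psmb9 (β1i) stood at 12.37, 12.38 and 12.22 in MHC II-deficient arrays, against 12.38, 12.25 and 11.97 in MHC II-competent arrays. Its difference was 0.12 (SE 0.12, adjusted p = 0.645). Psmb8 (β5i) stood at 11.09, 11.09 and 11.11 in MHC II-deficient arrays, against 11.09, 11.06 and 10.90 in MHC II-competent arrays. Its difference was 0.08 (SE 0.09, adjusted p = 0.714). For both genes competent 3 was the lowest array, and competent 1 and 2 lay within or near the MHC II-deficient range. Within each array, the log2 ratio of the inducible to the constitutive subunit at the same site was compared, relative to its mean in MHC II-competent arrays. At the β2 site, Psmb10 over Psmb7 was 0.75, 0.60 and 0.69 in MHC II-deficient arrays, against -0.10, 0.06 and 0.04 in MHC II-competent arrays. This was a 1.60-fold shift, with groups that did not overlap. At the β5 site, Psmb8 over Psmb5 was 0.45, 0.23 and 0.17 in MHC II-deficient arrays, against -0.10, 0.08 and 0.03. At the β1 site, Psmb9 over Psmb6 was 0.29, 0.06 and 0.15 in MHC II-deficient arrays, against 0.12, 0.06 and -0.19, and the groups overlapped. An exact two-sided permutation test gave p = 0.1 for β2 and β5 and 0.3 for β1, and 0.15, 0.15 and 0.3 after Benjamini-Hochberg adjustment over these 3 ratios. With 3 arrays against 3, 0.1 is the smallest p this test can give. Of single tested genes, 24.3% had groups that did not overlap, and the share over ratios of other gene pairs was not computed.

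The interacting proteins named after proteasome genes differed from each other. Psmc3ip encodes a protein of meiotic recombination and is not a subunit. It stood at 7.48, 7.41 and 7.76 in MHC II-deficient arrays, against 7.94, 8.09 and 8.10 in MHC II-competent arrays, the lowest difference of all members (-0.49, SE 0.12, adjusted p = 0.0552). It passed without deficient 3 (adjusted p = 0.0379) and with a filter at the median (0.0477), within a range of 0.0379 to 0.412 over all alternatives, and lay at -0.33 with the myeloid covariate. Psme3ip1 stood at 8.39, 8.69 and 8.55 in MHC II-deficient arrays, against 8.61, 8.54 and 8.56 in MHC II-competent arrays (difference -0.03, SE 0.10, adjusted p = 0.915), and its sign turned without deficient 1 (0.05), under quantile normalization (0.04) and with the myeloid covariate (0.02).

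A list of 27 tested genes around the proteasome, covering its transcriptional control, assembly, accessory enzymes and ubiquitin delivery, was followed beside the members. None of the 27 passed the threshold in limma's fit, and at an unadjusted p under 0.05, 5 lay lower and 1 higher, where 11% and 7.85% of all tested genes did. The median difference was -0.15, with 22 below 0, where 46% of all tested genes lay below 0. Among the 3759 genes with the highest means (at least 8.33), 22.1% were lower at that p and 68.9% lay below 0. The means of the 27 ran from 6.36 to 11.60, so only part of them belong to those genes. Nfe2l1 encodes Nrf1, the factor that raises proteasome genes when the proteasome is inhibited. It stood at 8.55, 8.63 and 8.39 in MHC II-deficient arrays, against 8.71, 8.75 and 8.28 in MHC II-competent arrays (difference -0.06, SE 0.14, adjusted p = 0.872). The following genes were chosen after their values were seen. Pomp, the maturation factor of the core, stood at 11.45, 11.43 and 11.53 in MHC II-deficient arrays, against 11.78, 11.70 and 11.73 in MHC II-competent arrays (difference -0.26, SE 0.09, adjusted p = 0.15). Uchl5, a deubiquitinase bound to the 19S base, lay at -0.28 and Txnl1, a thioredoxin-like protein of the 19S particle, at -0.41. Zfand2a, a stress-induced protein that associates with the proteasome, was the one at the high end, at 8.42, 8.31 and 8.39 in MHC II-deficient arrays, against 8.07, 7.94 and 7.99 in MHC II-competent arrays (difference 0.37, SE 0.09, adjusted p = 0.0635).

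**Figure D5:**
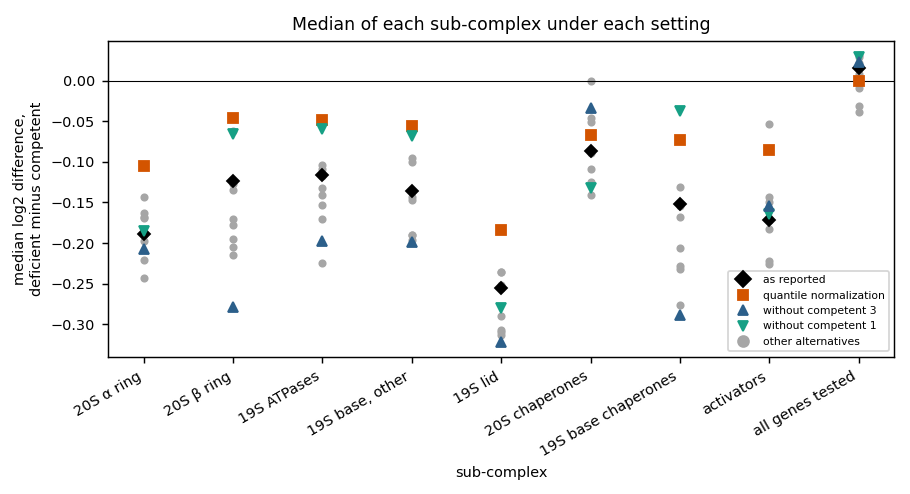
Median log2 difference (MHC II-deficient minus MHC II-competent) of each sub-complex as reported (black diamonds) and under each alternative setting. The medians of the 8 sub-complexes drawn stay below 0 under all settings drawn (the core chaperones at -0.0006 with the myeloid covariate), the lid between -0.32 and -0.18, while quantile normalization (orange squares) brings the ATPases and the β ring to -0.05. The β ring includes Psmb11 except with a filter at the median, where its median was -0.20.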

How the data were processed

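Total RNA (100 ng) of the sorted cells was hybridised as biotin-labelled cDNA to 1-colour Affymetrix whole-transcript arrays, per the labels' protocols. The deposited table holds 28101 rows of log2 values, made by the authors with the R package affy and RMA, per the submitters' processing notes. The log base is not given in the sources used here and was taken as 2. Versions and build are not given either, and array medians lay between 6.11 and 6.25.

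Rows were named through the platform annotation (21640 with 1 symbol, of which 21553 were matched by Entrez identifier to RefSeq of GRCm38.p6). Of several rows per gene the one with the highest mean was kept, and genes under the 25th percentile of row means (5.205) were left out. Psma3, Psma5, Psmb3, Psmc1 and Psmd2 have further rows, and the rows used for these 5 genes may measure processed copies rather than the gene itself. Any row can bind transcripts of near-identical copies. The deposited log2 values were tested without further normalization, with limma 3.58.1 in R 4.3.3 (two-sided, 4 residual degrees of freedom, Benjamini-Hochberg over 15037 genes), after the fit had been tested on simulated data. Ratios of subunits were tested with scipy 1.17.1. Promoters are from RefSeq (39 of 47 genes). The number of arrays limits the precision.

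Values in every array are given for the highest and lowest member of each sub-complex, the catalytic subunits, the activators, Psmf1, Psmd4 and Psmd14, and for members past the threshold. The members and lists were chosen with earlier results of these data known. Alternatives were quantile normalization, median centring, 2 other filters, a trended robust prior, array weights, the mean of all rows of a gene, the replicate number as a block, a myeloid covariate and leaving out each array.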

Additional observations from a re-analysis of the deposited data

How the results depend on the processing

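Over 15 alternative settings no member was called higher, and 0 to 3 were called lower. The 3 were Psmb7, Psmd6 and Psmd8 under the trended robust prior. There were 2 with array weights, 2 with a filter at the median and 1 with median centring, and 0 to 1 with 1 array left out (Psmd8 without competent 3, Psmc3ip without deficient 3). Between 35 (quantile normalization) and 42 (median centring) members lay below 0, and 36 to 41 with 1 array left out. Quantile normalization moved the medians of all members to -0.11, of the 26S subunits to -0.12, of the α genes to -0.11, of the lid to -0.18 and of the activators to -0.0853. The myeloid covariate, with 3 residual degrees of freedom, moved those of the ATPases to -0.22, of the core chaperones to -0.0006 and of the activators to -0.0528, with the median of all members at -0.20. With 1 array left out the median of all members ran from -0.14 (without competent 1) to -0.22 (without competent 3) and that of the β genes from -0.0616 to -0.28.

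Among all genes 201 were called higher and 306 lower. The counts were 230 and 230 under quantile normalization, 127 and 297 with median centring, and 24 and 46 with the myeloid covariate. They ran from 76 (without deficient 1) to 222 higher and from 81 (without competent 2) to 486 lower (without competent 3) with 1 array left out, and the lower calls moved by over 1.5 times without any one of the 6 arrays. Of the further rows of member genes, those of Psma5 (-0.22), Psmc1 (-0.17), Psmd2 (-0.18), Psmb3 (-0.04) and Psma3 (-0.21 and -0.02) lay below 0 like the rows used.

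Signs turned for Psma7 (0.0035), Psmb6 (0.0312) and Psme3ip1 (0.0434) under quantile normalization, for Psmc4 with median centring (-0.0299), array weights (-0.0537) and the myeloid covariate (-0.12), and for Psmg4 (-0.0071) and Psme3ip1 (0.0206) with that covariate. With 1 array left out, Psmd5 ran from -0.29 to 0.0263, Psme3ip1 from -0.10 to 0.0492, Psmb6 from -0.12 to 0.0003 and Psmc4 from -0.0715 to 0.15. The cause was not tested. A replicate block on the label numbers left 0 members past the threshold, with 246 genes higher and 318 lower among all genes, and the median of all members was -0.19. Deviations of same-numbered arrays correlated at -0.03, -0.14 and 0.07, and the labels do not say that the numbers pair arrays.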
